A study of Sus scrofa with 6 samples.

Results

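A set of 10 genes of vascular calcification was followed in the abdominal aorta of Wuzhishan miniature pigs: SPP1, AMBN, IBSP and SPARC, which encode proteins of mineralized matrix, the transcription factors RUNX2 and SOX9, the alkaline phosphatase gene ALPL, and MGP, ENPP1 and ANKH, which restrain mineral growth. They were picked by gene name, with their values in these pigs already known, and each of the 10 names was found on 1 row among the 30477 genes of the expression table. In this study 3 male pigs ate normal chow (NC) and 3 ate chow enriched in fat, cholesterol and fructose (HFCF), in both cases for 6 months, and 1 RNA library was made from each pig. The methods describe more pigs on each diet than the 3 analysed here. The pigs are 3 to 4 months old in the sample labels and older than that in the methods. Shortening and egg yolk powder were the sources of fat named for HFCF. RNA was taken from tissue and not from sorted cells, so fewer cells of a type and less RNA per cell cannot be told apart. Because the choice of the 10 genes drew on the HFCF to NC contrast, their differences are given below as a description without p-values.

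Calcium phosphate crystals can grow in the arterial wall in a process that shares genes with bone formation. Smooth muscle cells that take on bone- or cartilage-like traits switch on RUNX2 or SOX9, and secreted phosphoproteins such as osteopontin (SPP1) bind the mineral. Pyrophosphate blocks crystal growth. ENPP1 makes it from ATP, ANKH promotes its release, and tissue-nonspecific alkaline phosphatase (ALPL) breaks it down. Matrix Gla protein (MGP) is made by healthy smooth muscle and becomes active only after vitamin K-dependent carboxylation. Osteopontin is also a product of macrophages.

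Values are in FPKM, a read density scaled to exon length and to the mapped reads of each library, on which genes can be compared with each other. The number of reads behind each value is not known, but the commonest ratio between low values of genes with 1 transcript put the relative depth of the 6 libraries between 1.0 and 1.368. FPKM summed to between 272207 and 287141 in the NC pigs and between 330222 and 338690 in the HFCF pigs. A mitochondrial ribosomal RNA (ENSSSCG00000018061) was between 0.295 and 0.686 FPKM in the NC pigs and between 140.7 and 205.7 FPKM in the HFCF pigs. The part of this difference between the libraries in the results below was not tested. Differences were taken on the log2(FPKM + 0.1) scale, which understates those of genes with low values, over the 15384 genes with a mean of at least 0.1 FPKM. Of the 10 genes, 9 passed this filter and IBSP did not. RUNX2, SOX9 and ALPL, with NC means of 0.0886, 0.078 and 0.0862 FPKM, passed it only through the HFCF pigs. The median log2 difference between HFCF and NC over all tested genes was 0.32, while median-ratio scaling moved it to -0.01, quantile normalization to -0.07 and TPM to 0.08, so differences are also given relative to that median. With limma and Benjamini-Hochberg adjustment at 0.05, 3505 genes were called higher on HFCF and 948 lower. Median-ratio scaling made these counts 2035 and 1982, quantile normalization 1748 and 1782, and TPM 2228 and 1539.

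SPP1 and AMBN stood far above the other 8 genes in the size of their differences, while the most abundant members, MGP and SPARC, had similar levels on both diets. Of the 9 genes that passed the filter, 4 (SPP1, AMBN, RUNX2 and ENPP1) passed the limma threshold, all higher in the HFCF group, and in the same 4 every HFCF pig was above every NC pig. Over all tested genes, 22.8% were called higher and 6.16% lower, and 48.2% had groups that did not overlap, 36.1% with every HFCF pig above every NC pig. These shares are given as a background only, since the contrast had served to choose the genes.

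**Figure D1:**
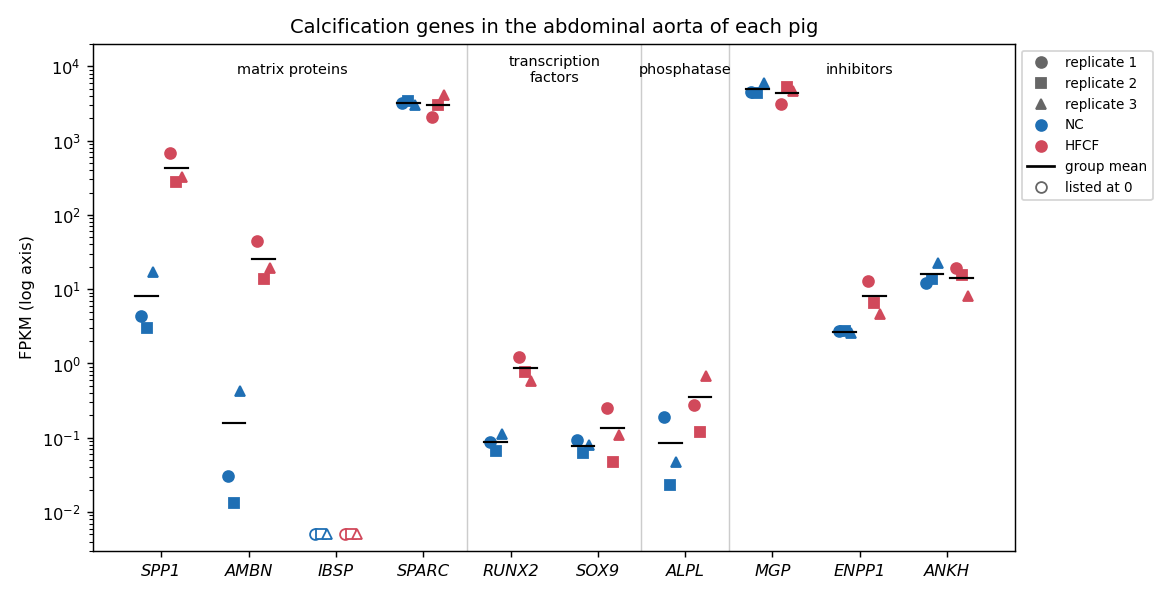
FPKM (log axis) of the 10 calcification genes in each pig, ordered by role, with NC in blue, HFCF in red, 1 symbol per replicate and the group mean as a black bar. SPP1, AMBN, RUNX2 and ENPP1 are separated between the diets, MGP and SPARC lie highest in all 6 pigs, and IBSP is listed at 0 throughout (open symbols drawn at the foot of the axis).

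Among the matrix proteins, SPP1 (osteopontin, ENSSSCG00000009216) is an acidic, integrin-binding phosphoprotein. It was 4.41, 3 and 17.2 FPKM in the 3 NC pigs and 677.8, 278.1 and 322.7 FPKM in the 3 HFCF pigs. The groups did not overlap, and the third NC pig was the highest of its group. The mean was 8.21 ± 7.83 FPKM (SD, n = 3) on NC and 426.2 ± 219.0 FPKM (SD, n = 3) on HFCF, a ratio of 51.9. The log2 difference was 5.98 (standard error 0.65), or 5.66 relative to all genes. Without the third NC pig it was 6.72. By level, SPP1 ranked between 2320 and 7340 among the genes of each NC pig and between 66 and 161 in the HFCF pigs. Only 16 tested genes had a larger positive log2 difference.

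AMBN (ameloblastin, ENSSSCG00000008937) encodes a matrix protein best known from developing tooth enamel. It was 0.0305, 0.0133 and 0.424 FPKM in the NC pigs and 43.9, 13.6 and 19.3 FPKM in the HFCF pigs. As with SPP1, the third NC pig was the highest and the second the lowest of the NC group, and the first HFCF pig was the highest and the second the lowest of the HFCF group. The mean was 0.156 ± 0.232 FPKM on NC and 25.6 ± 16.1 FPKM on HFCF (SD, n = 3 each). The log2 difference was 6.84 (standard error 0.68), with 5 tested genes above it. It was 7.54 without the third NC pig, whose removal brings the NC mean to 0.0219 FPKM, and it lay between 4.38 with a pseudocount of 1 and 8.25 with a pseudocount of 0.01. Within each pig, AMBN amounted to 4.42 to 24.6 per 1000 FPKM of SPP1 on NC and to 48.9 to 64.8 per 1000 on HFCF. By these ratios every HFCF pig had more AMBN for its SPP1 than any NC pig. The NC ratios rest on AMBN values of 0.424 FPKM or less in libraries of unknown depth. Both genes were chosen with this contrast known, so the ratios are a description.

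IBSP (bone sialoprotein, ENSSSCG00000009219), a mineral-nucleating relative of osteopontin, was listed at 0 in all 6 pigs. SPARC (osteonectin, ENSSSCG00000017082), a calcium- and collagen-binding glycoprotein, was 3217, 3411 and 3046 FPKM on NC and 2059, 3028 and 4052 FPKM on HFCF. The groups overlapped and the HFCF pigs held both the lowest and the highest value. Its log2 difference was -0.13 (standard error 0.29), or -0.46 relative to all genes. SPARC was between the 7th and the 17th most abundant gene of each pig.

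**Figure D2:**
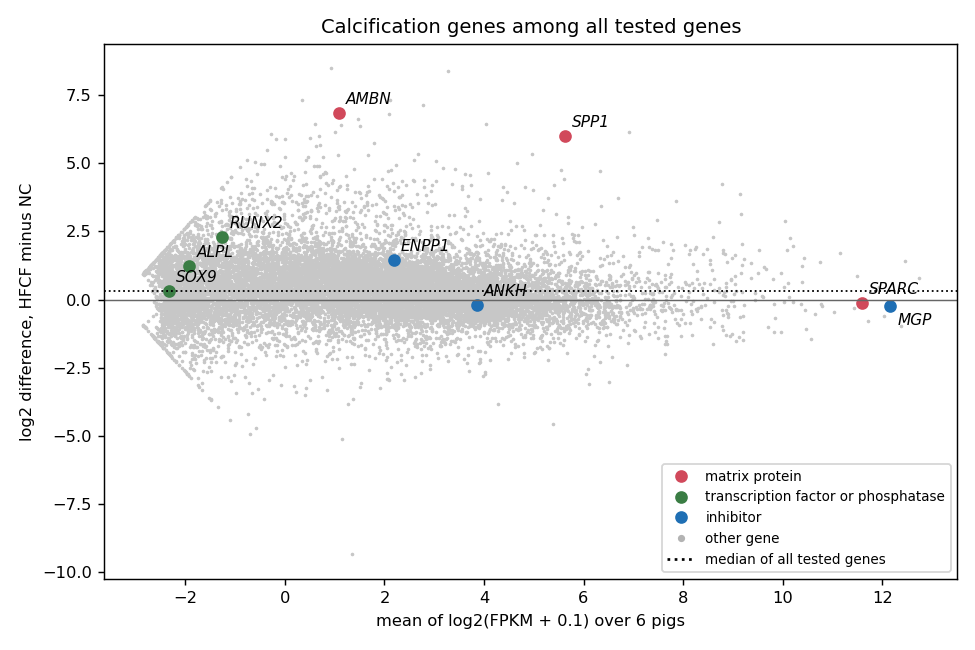
Log2 difference between HFCF and NC (y axis) against the mean log2(FPKM + 0.1) over the 6 pigs (x axis) for all tested genes (grey) and the 9 calcification genes tested (coloured by role). AMBN and SPP1 lie at 6.84 and 5.98, far above the dotted median of all genes at 0.32, while SPARC and MGP lie at the right edge just below 0.

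RUNX2 (ENSSSCG00000001710), the master transcription factor of osteoblasts, was low in all pigs. It was 0.0867, 0.0661 and 0.113 FPKM on NC and 1.23, 0.777 and 0.584 FPKM on HFCF. No value overlapped between the diets. The mean was 0.0886 ± 0.0236 FPKM on NC and 0.862 ± 0.329 FPKM on HFCF (SD, n = 3 each), a ratio of 9.73 that the pseudocount shrinks to a log2 difference of 2.30 (standard error 0.37). With a pseudocount of 1 the log2 difference was 0.76, and with 0.01 it was 3.11. SOX9 (ENSSSCG00000017251), which directs cartilage formation, was between 0.0617 and 0.0924 FPKM on NC and was 0.25, 0.0479 and 0.11 FPKM on HFCF. The groups overlapped, and the log2 difference of 0.32 (standard error 0.45) equalled the median of all genes.

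ALPL (ENSSSCG00000032607), the enzyme that removes pyrophosphate, was 0.188, 0.0228 and 0.0475 FPKM on NC and 0.28, 0.121 and 0.675 FPKM on HFCF. The second HFCF pig lay below the first NC pig. The log2 difference was 1.21 with a standard error of 0.58, and it ranged from 0.31 to 2.04 over 14 alternative settings.

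Of the 3 inhibitors, MGP and ANKH overlapped between the diets and ENPP1 did not. MGP (ENSSSCG00000037697) was 4570, 4435 and 5894 FPKM on NC and 3085, 5290 and 4636 FPKM on HFCF. The groups overlapped, with the first HFCF pig lowest. The mean was 4967 ± 806.3 FPKM on NC and 4337 ± 1132 FPKM on HFCF (SD, n = 3 each), and the log2 difference was -0.22 (standard error 0.29), or -0.54 relative to all genes. MGP was between the 2nd and the 8th most abundant gene in every pig and held between 0.911% and 2.17% of the summed FPKM. With SPP1 so different and MGP so similar, SPP1 amounted to 0.677 to 2.92 FPKM per 1000 FPKM of MGP on NC and to 52.6 to 219.7 on HFCF.

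ENPP1 (ENSSSCG00000004193), the enzyme that makes pyrophosphate, was 2.7, 2.72 and 2.55 FPKM on NC and 13, 6.61 and 4.62 FPKM on HFCF. The NC pigs were nearly identical, and all 3 HFCF pigs were above them. The mean was 2.66 ± 0.0924 FPKM on NC and 8.08 ± 4.39 FPKM on HFCF (SD, n = 3 each), a log2 difference of 1.44 (standard error 0.36) that lay between 1.03 and 1.77 with any 1 pig left out. Its limma call was lost without any 1 of the 3 NC pigs (1.45, 1.45 and 1.41 on the log2 scale), without the second HFCF pig (1.51), with median-ratio scaling and with quantile normalization. ANKH (ENSSSCG00000016784), the membrane protein needed for pyrophosphate release, was 12.2, 13.6 and 22.4 FPKM on NC and 19, 15.7 and 8.01 FPKM on HFCF. The groups overlapped, with a log2 difference of -0.21 (standard error 0.37). ENPP1 amounted to between 0.114 and 0.221 of the ANKH level on NC and to between 0.42 and 0.686 on HFCF.

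Markers of several cell types moved with the diet and are set beside these values. The shares over all tested genes, for comparison, were 22.8% called higher and 6.16% called lower. The summed FPKM of 14 macrophage markers was 64.4 to 77.7 on NC and 902.1 to 2283 on HFCF, with 12 of 13 tested markers called higher and LYZ at 0 in all pigs. The sum of 12 markers of lipid-laden macrophages was 163.6 to 181.5 on NC and 921.8 to 2500 on HFCF, and 8 of the 12 were called higher. CD9, which was not called, made up most of this sum in each NC pig (102.2, 98.4 and 124.4 FPKM). APOE, which was called higher, made up most of it in each HFCF pig (1826, 882.3 and 635.1 FPKM). For 9 osteoclast markers the sum was 10.3 to 15 on NC and 62.6 to 188.8 on HFCF, with 5 of 8 called higher, among them ACP5 and MMP9. NFATC1, on the same list, went the other way without being called, at 9.5, 8.32 and 11.3 FPKM on NC and 8.15, 6.38 and 4.07 FPKM on HFCF. NFATC1 made up most of the osteoclast sum in each NC pig, and ACP5 most of it in each HFCF pig. The sum of 10 contractile smooth muscle markers was 16016 to 22856 on NC and 8049 to 12949 on HFCF, with 7 of the 10 called lower. The sum of 8 osteoblast and osteocyte markers overlapped between the diets, at 9.51 to 31.1 on NC and 16.7 to 40.4 on HFCF. Of 6 tested markers 1 was called higher, which is 16.7% against 22.8% of all tested genes. Over the 6 pigs the mean level was 8.53 FPKM for DMP1, 7.9 for SOST, 5.47 for BGLAP, 1.31 for SP7, 0.535 for PHEX, 0.0513 for IFITM5 and 0.0401 for MEPE. DMP1 was the one called higher. BGLAP (osteocalcin) was 3.84 ± 2.09 FPKM on NC and 7.11 ± 2.66 FPKM on HFCF (SD, n = 3 each) and was not called (adjusted p = 0.154, limma). SOST (sclerostin), at 0.748, 0.76 and 17.7 FPKM on NC and 0, 19.7 and 8.52 FPKM on HFCF, was not called either (adjusted p = 0.967, limma). The overlap of the osteoblast and osteocyte sums rests on SOST. It gave 17.7 of the 31.1 FPKM in the third NC pig and 0 in the first HFCF pig, whose sum was 16.7 FPKM. The sums for fibroblasts (2186 to 3533 on NC, 2029 to 3524 on HFCF), endothelium (83.2 to 170.3 and 76.5 to 197.2) and adipocytes (5.28 to 124.4 and 8.06 to 20.7) overlapped between the diets, whereas 6 T cell markers summed to 0.825 to 1.04 on NC and 2.97 to 11 on HFCF. COL3A1 made up most of each fibroblast sum, and LUM was the 1 of 8 fibroblast markers called higher (adjusted p = 0.00215, limma). The adipocyte overlap rests on the third NC pig. The adipocyte sums were 76.3, 124.4 and 5.28 FPKM on NC and 15.4, 8.06 and 20.7 FPKM on HFCF, and 0 of 5 tested markers were called.

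**Figure D3:**
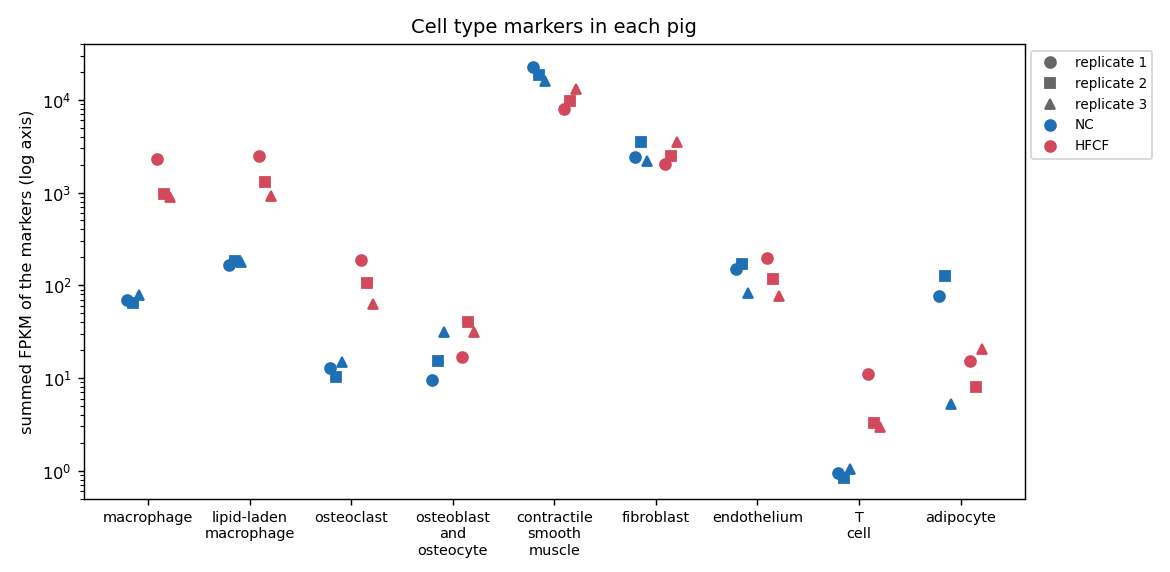
Summed FPKM (log axis) of 9 lists of cell type markers in each pig, NC in blue and HFCF in red, 1 symbol per replicate. The macrophage, lipid-laden macrophage, osteoclast and T cell sums are higher in all HFCF pigs, and the contractile smooth muscle sum is lower in all of them. The osteoblast and osteocyte sum overlaps between the diets, an overlap that rests on SOST.

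The first HFCF pig, which had the highest SPP1, AMBN, RUNX2 and ENPP1, also had the highest macrophage sum (2283 FPKM against 969.1 and 902.1 FPKM), and among the NC pigs the third had the highest SPP1, AMBN, RUNX2 and macrophage sum. Set against the macrophage sum of the same pig, SPP1 was 46.7 to 221.5 FPKM per 1000 FPKM of macrophage markers on NC and 287.0 to 357.7 on HFCF. AMBN was 0.206 to 5.45 per 1000 on NC and 14 to 21.4 on HFCF, so both remained higher in all HFCF pigs on this scale. RUNX2 was 1.03 to 1.46 per 1000 on NC and 0.537 to 0.802 on HFCF, and ENPP1 was 32.8 to 42.2 and 5.12 to 6.82, so for both the order of the diets was turned. These orders depend on the markers chosen. In the lipid-laden macrophage and osteoclast lists, ACP5, TREM2 and APOE had log2 differences of 7.12, 6.35 and 6.14. All were above the 5.98 of SPP1, while the other tested markers of both lists were below it. Only ACP5 was above the 6.84 of AMBN. Ratios to single markers were not taken. The part of the change in cell types in the values of the 10 genes was not tested.

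The genes whose profiles over the 6 pigs lay nearest to those of SPP1 and AMBN were sought among 9582 named genes with a mean of at least 1 FPKM, by the root-mean-square difference of the centred log2 values. Nearest to SPP1 were SUSD3 (0.32), ADAM28 (0.35), AMBN (0.46), MCOLN3 (0.46) and ATP6V0D2 (0.50). ADAM28 encodes a metalloproteinase, MCOLN3 an endolysosomal cation channel and ATP6V0D2 a proton pump subunit used by osteoclasts and macrophages. Nearest to AMBN were RNF128 (0.34), SPP1 (0.46), ACP5 (0.48), SUSD3 (0.53) and SLC2A5 (0.55). ACP5 encodes tartrate-resistant acid phosphatase, RNF128 a ubiquitin ligase and SLC2A5 the fructose transporter. These profiles are dominated by the difference between the diets that had served to choose SPP1 and AMBN, and AMBN and the other genes near SPP1 or AMBN, whose NC means were 0.0752 to 0.708 FPKM, reached the mean of 1 FPKM only through the HFCF pigs. The nearness of SPP1 and AMBN to each other is therefore a description and not an independent observation. SUSD3 and ATP6V0D2 were listed at 0 in the first 2 NC pigs. With a pseudocount of 1, 0 of the 5 genes remained for either, and with 0.01, 0 remained for SPP1 and 3 for AMBN. Nearest to MGP were CCDC8, CACNB3, FAM160B2, GAS6 and B3GNT9, at 0.06 to 0.08. GAS6, like MGP, encodes a protein that vitamin K-dependent carboxylation completes, and it was 174.0 ± 26.4 FPKM on NC and 156.0 ± 48.3 FPKM on HFCF (SD, n = 3 each). Between 0 and 4 of these 5 genes remained with 1 pig left out, and 0 with quantile normalization.

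**Figure D4:**
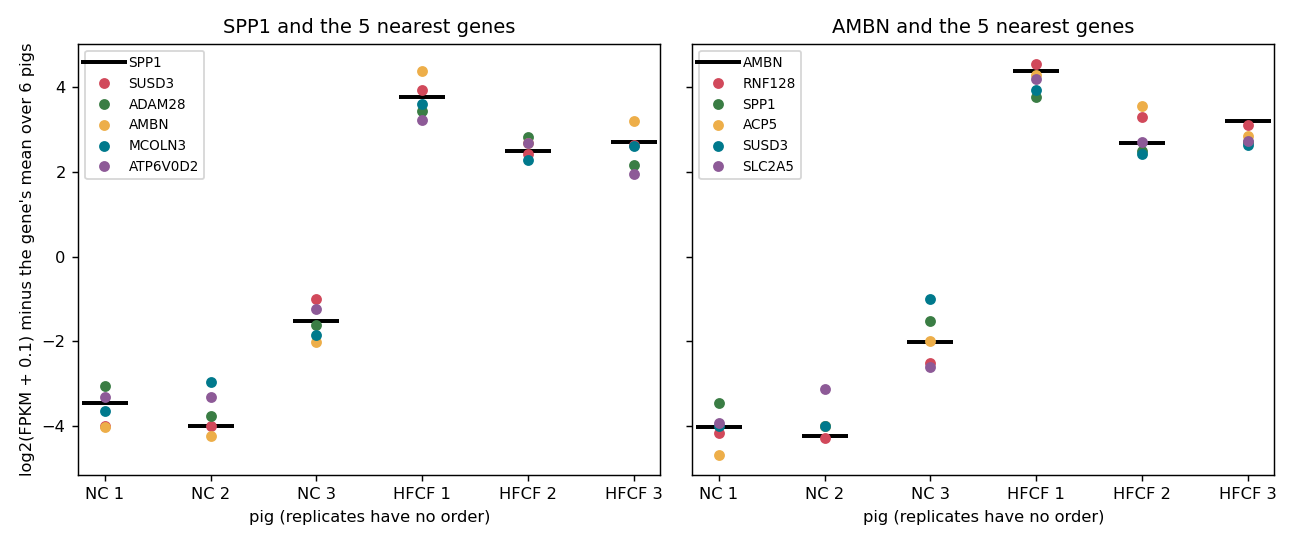
Log2(FPKM + 0.1) minus the mean of the gene over the 6 pigs, for SPP1 and its 5 nearest genes (left) and AMBN and its 5 nearest genes (right). Black bars mark SPP1 or AMBN and dots the other genes, all of them low in NC pigs 1 and 2, higher in NC pig 3 and highest in HFCF pig 1.

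SPP1, IBSP and AMBN belong to the secretory calcium-binding phosphoprotein family, whose genes are thought to derive from an ancestor related to SPARC. In the RefSeq annotation of Sscrofa11.1, used here only for gene order because the methods name an earlier build, the 3 genes lie on the same chromosome. SPP1 is flanked by PKD2 on one side and by MEPE, IBSP and DMP1 on the other, with 1 gene between SPP1 and IBSP and 293 genes between SPP1 and AMBN. PKD2, a cation channel gene, was 5.24 ± 1.25 FPKM on NC and 4.66 ± 0.346 FPKM on HFCF (SD, n = 3 each), a log2 difference of -0.14 (adjusted p = 0.666, limma). MEPE, a bone matrix gene, was between 0 and 0.136 FPKM and was not tested. DMP1, a dentin and bone matrix gene, was 5.05, 6.57 and 7.22 FPKM on NC and 10.9, 10.8 and 10.6 FPKM on HFCF. It rose by 0.79 on the log2 scale (standard error 0.18, adjusted p = 0.0176, limma), or 0.47 relative to all genes, and the call was lost with each of the 3 scalings and without the second HFCF pig (adjusted p = 0.0552, limma). Around AMBN, the enamel genes AMTN and ENAM on either side were listed at 0 in all 6 pigs, and CABS1 was at 0.14 FPKM in 1 NC pig and at 0 in the others. JCHAIN, the joining chain of immunoglobulins, had a log2 difference of 0.84 (adjusted p = 0.35, limma), with 4.95 FPKM in the first HFCF pig against 0.746 to 0.975 FPKM in the other 5, and a difference of 0.06 without that pig. UTP3 had a log2 difference of 0.36 (adjusted p = 0.246, limma). No tested neighbour of SPP1 or AMBN had a log2 difference above 0.84. A further 3 neighbours with provisional names were not analysed here.

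Of 97 other genes of mineralization in 7 lists, 94 were in the table, 80 were tested, 11 were called higher and 5 lower by limma. That is 13.8% higher and 6.25% lower, against 22.8% and 6.16% of all tested genes, and 28.9% called in either direction. The median log2 difference of the 80 genes was 0.28, which is -0.04 relative to all genes. The lists were drawn up with results of these data known. With median-ratio scaling, which brings the median of all genes close to 0, 6 of the genes were called higher and 10 lower. Over all genes this scaling gave 2035 higher and 1982 lower, against 3505 and 948 without it, so the shift was not particular to the lists.

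**Figure D5:**
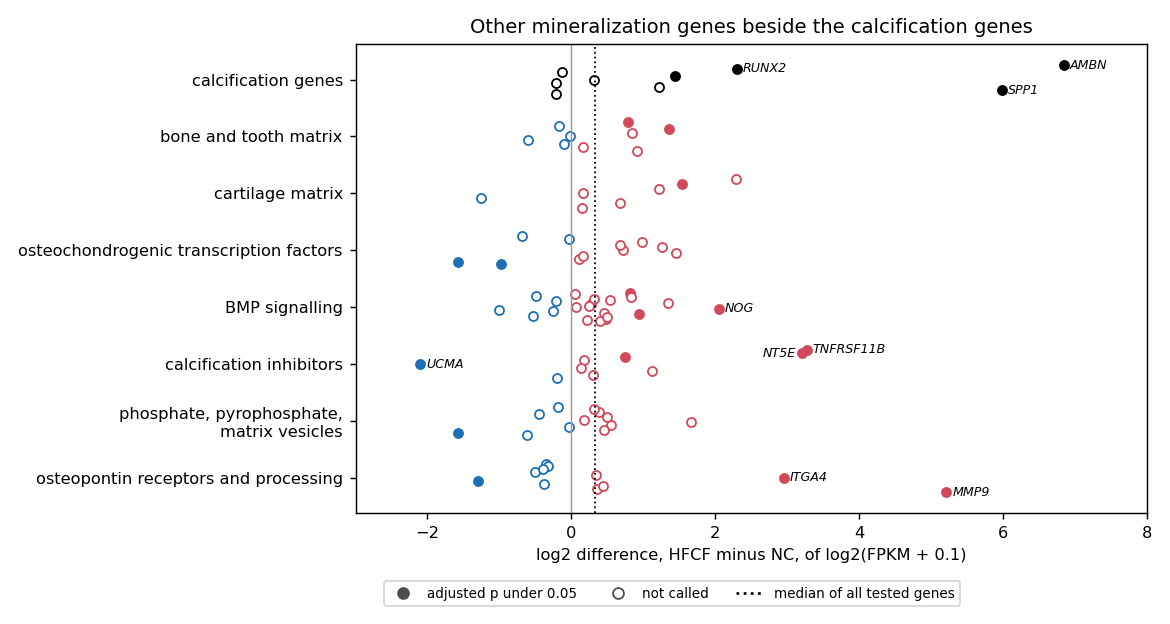
Log2 difference between HFCF and NC of the 9 calcification genes (black) and of 80 other mineralization genes in 7 lists (red above 0, blue below 0). Filled symbols have an adjusted p under 0.05 in limma, and the dotted line marks the median of all tested genes at 0.32, around which most genes of the lists lie.

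Among 9 tested genes of bone and tooth matrix, 2 rose and 0 fell, with a median log2 difference of 0.16. That is 22.2% higher, against 22.8% of all tested genes. Beside DMP1, OMD (osteomodulin, a mineral-binding keratan sulphate proteoglycan) was 6.99 ± 1.56 FPKM on NC and 18.4 ± 5.82 FPKM on HFCF (SD, n = 3 each). It rose by 1.36 on the log2 scale (standard error 0.27, adjusted p = 0.0123, limma). OMD lost its call without the first NC pig (adjusted p = 0.052, limma). COL1A1, the main collagen of bone and of the arterial wall, was 1494 ± 554.7 FPKM on NC and 1293 ± 394.2 FPKM on HFCF (adjusted p = 0.76, limma). Among 7 tested cartilage matrix genes, 1 rose (14.3%, against the same 22.8%). This was HAPLN1, the link protein of hyaluronan and proteoglycan, with 0.602 ± 0.145 FPKM on NC and 1.97 ± 0.557 FPKM on HFCF (log2 difference 1.54, adjusted p = 0.0125, limma), and its call was lost with quantile normalization. With a pseudocount of 1 the difference of HAPLN1 was 0.88. COMP varied widely, at 12.7 ± 15.7 FPKM on NC and 58.3 ± 77 FPKM on HFCF. COL10A1, the collagen of hypertrophic cartilage, was listed at 0 in all pigs.

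Among 11 tested osteochondrogenic transcription factors, 0 rose and 2 fell (18.2%), against 22.8% higher and 6.16% lower over all tested genes. MSX2, a homeobox factor upstream of osteoblast genes, was 7.42, 9.72 and 4.58 FPKM on NC and 1.66, 3.1 and 2.26 FPKM on HFCF. The log2 difference was -1.57 (standard error 0.34, adjusted p = 0.0156, limma), and the call was lost without the first or the second NC pig (adjusted p = 0.0625 and 0.0507, limma). SOX6, a partner of SOX9 in cartilage, was 1.28 ± 0.31 FPKM on NC and fell to 0.587 ± 0.0736 FPKM on HFCF (log2 difference -0.98, adjusted p = 0.0417, limma), a call that held without the third NC pig and was lost with any 1 of the other 5 pigs left out (adjusted p between 0.0692 and 0.132, limma) and with no filter. SP7, the factor that acts after RUNX2 in osteoblasts, was 1.31 FPKM on average and was not called (adjusted p = 0.58, limma). NFATC1, which drives osteoclast genes, was 9.71 ± 1.5 FPKM on NC and 6.2 ± 2.05 FPKM on HFCF (adjusted p = 0.102, limma), and was called lower with each of the 3 scalings (adjusted p between 0.0293 and 0.0449, limma) and without the first HFCF pig (adjusted p = 0.0478, limma).

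Among 21 genes of bone morphogenetic protein (BMP) signalling, 3 rose (14.3%, against 22.8% of all tested genes) and 0 fell. NOG, the secreted BMP antagonist noggin, was 0.242, 1.22 and 1.27 FPKM on NC and 2.44, 3.84 and 4.27 FPKM on HFCF, and rose by 2.05 on the log2 scale (standard error 0.56, adjusted p = 0.0338, limma). The difference was 1.39 without the first NC pig and 1.27 with a pseudocount of 1, and the call was lost with each of the 3 scalings, with no filter, and without the second or the third HFCF pig (adjusted p = 0.0873 and 0.0851, limma). SMAD5, a signal transducer, and BMPR1A, a type I receptor, had log2 differences of 0.94 and 0.81 (adjusted p = 0.0286 and 0.0417, limma). Their calls were lost with each of the 3 scalings, and with 4 and 5 of the 6 pigs left out in turn. The call of BMPR1A was also lost with no filter and with eBayes without a trend. The ligand BMP2 was 2.31 FPKM on average (adjusted p = 0.72, limma), and the target ID3 was 1267 ± 504.1 FPKM on NC and 603.8 ± 150.4 FPKM on HFCF (adjusted p = 0.082, limma). ID3 was called lower with each of the 3 scalings (adjusted p between 0.0261 and 0.0419, limma) and without the third NC pig (adjusted p = 0.0205, limma).

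Among 9 tested calcification inhibitors and genes that activate them, 3 rose and 1 fell. These are 33.3% and 11.1%, against 22.8% and 6.16% of all tested genes. TNFRSF11B (osteoprotegerin, the decoy receptor that keeps RANKL from osteoclast precursors) was 0.953, 1.15 and 2.45 FPKM on NC and 13.5, 21.8 and 10 FPKM on HFCF. All HFCF pigs were above all NC pigs, with a log2 difference of 3.27 (standard error 0.41, adjusted p = 0.00272, limma) that was 2.66 with a pseudocount of 1. NT5E (CD73, which makes adenosine from AMP) was 2, 1.93 and 3.11 FPKM on NC and 52.6, 14.9 and 13.3 FPKM on HFCF. Its log2 difference was 3.20 (standard error 0.52, adjusted p = 0.00618, limma), and it was 2.56 without the first HFCF pig (adjusted p = 0.00291, limma). UCMA (Gla-rich protein, a vitamin K-dependent inhibitor of mineral) was 11, 17.6 and 8.94 FPKM on NC and 1.52, 2.4 and 5.5 FPKM on HFCF. It had a log2 difference of -2.10 (standard error 0.47, adjusted p = 0.0176, limma), and the call was lost without the first NC, the second NC or the second HFCF pig (adjusted p between 0.0512 and 0.0601, limma). GGCX, the carboxylase that completes MGP, UCMA and GAS6, rose from 14.6 ± 2.05 to 24.6 ± 2.4 FPKM (log2 difference 0.75, adjusted p = 0.0151, limma), and its call was lost with median-ratio scaling, with TPM and without the first NC pig (adjusted p = 0.051, limma). The fetuin-A gene AHSG averaged 0.151 FPKM, and KL and ABCC6 were below the filter.

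Among 12 tested genes of phosphate transport, pyrophosphate and matrix vesicles, 0 rose and 1 fell (8.33%), against 22.8% higher and 6.16% lower over all tested genes. SLC20A2, a sodium-phosphate cotransporter, was 20.5, 16.1 and 18.7 FPKM on NC and 7.09, 11.5 and 2.79 FPKM on HFCF (log2 difference -1.57, standard error 0.47, adjusted p = 0.0433, limma). The call was lost without any 1 of the 3 NC pigs or the first HFCF pig (adjusted p between 0.0745 and 0.133, limma), with no filter and with eBayes without a trend. The other cotransporter of this pair, SLC20A1, was not called (adjusted p = 0.202, limma), nor was the vesicle annexin ANXA6, at 220.7 ± 22.7 FPKM on NC and 145.6 ± 36.4 FPKM on HFCF (adjusted p = 0.0618, limma). ANXA6 was called lower with each of the 3 scalings (adjusted p between 0.0201 and 0.0331, limma) and without the third HFCF pig (adjusted p = 0.0318, limma).

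Among 11 tested genes of osteopontin receptors and processing, 2 rose and 1 fell, with a median log2 difference of -0.32, or -0.65 relative to all genes. These are 18.2% and 9.09%, against 22.8% and 6.16% of all tested genes. MMP9, a gelatinase that can cleave osteopontin, was 0.131, 0 and 0.41 FPKM on NC and 31.1, 8.38 and 2.17 FPKM on HFCF. It rose by 5.21 on the log2 scale (standard error 0.99, adjusted p = 0.0102, limma). The difference was 4.62 without the second NC pig, 4.27 without the first HFCF pig and 6.16 without the third HFCF pig, and it lay between 3.07 with a pseudocount of 1 and 6.62 with a pseudocount of 0.01. ITGA4, the alpha-4 integrin of leukocytes, was 0.0259 FPKM or less on NC and 1.79, 0.434 and 0.501 FPKM on HFCF (log2 difference 2.95, adjusted p = 0.00931, limma). With an NC mean of 0.00989 FPKM, it passed the filter only through the HFCF pigs. The difference of ITGA4 lay between 0.85 with a pseudocount of 1 and 5.44 with a pseudocount of 0.01. ITGA5, the alpha subunit of the fibronectin receptor, fell from 196.5 ± 73.6 to 80.6 ± 30.9 FPKM (log2 difference -1.30, adjusted p = 0.0347, limma), and the call was lost without the first NC, second NC, first HFCF or second HFCF pig (adjusted p between 0.0728 and 0.109, limma), with no filter and with eBayes without a trend. ITGB5, which pairs with the alpha-v integrin, was 268.9 ± 53.4 FPKM on NC and 207.4 ± 46.4 FPKM on HFCF (adjusted p = 0.235, limma). The osteopontin receptor CD44 and the alpha-v integrin ITGAV were not called, with log2 differences of 0.03 and 0.12 relative to all genes (adjusted p = 0.145 and 0.589, limma). Without the second HFCF pig ITGAV was called higher, at 1.12 (adjusted p = 0.035, limma). CD44, ITGAV, ITGA4, SLC20A1, AHSG, KL, ABCC6, GGCX, BMP2, SP7, SOX6, COL10A1, ACP5, TREM2, APOE, CD9, COL3A1, LUM, BGLAP, SOST, PHEX and IFITM5 fall outside the naming rule of the lists and were named after their values had been seen.

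The GO terms deposited with the table gave a list of mineral genes that did not start from the 10 names. Positive regulation of bone mineralization held 32 tested genes, none of them among the 10, with 8 called higher and 1 lower and a median of -0.06 relative to all genes. Negative regulation of bone mineralization held 8 tested genes besides SOX9, with 3 higher and 1 lower and a median of 0.58 relative to all genes. Ossification held 42 tested genes besides SPP1, RUNX2, SOX9 and MGP, with 10 higher and 2 lower, which is 23.8% higher against 22.8% of all genes. Bone mineralization held 27 tested genes, with 2 higher and 4 lower, and osteoblast differentiation held 50 besides SPP1 and RUNX2, with 7 higher and 5 lower. The shares called higher were 7.41% and 14% for these terms, and 25% and 37.5% for positive and negative regulation of bone mineralization. Of all tested genes, 22.8% were called higher and 6.16% lower. Of 6 tested genes of biomineral tissue development besides SPP1 and AMBN, 1 was called higher (16.7%), and of 7 of enamel mineralization 2 were higher (28.6%) and 2 lower. These terms were chosen after the annotation of the table had been seen.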

How the data were processed

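Abdominal aorta RNA from 3 NC and 3 HFCF pigs was sequenced as paired-end reads, 1 library per pig. Per the labels and methods, the authors used cutadapt 1.9 and FastQC on the reads, HISAT2 for alignment to a pig genome and StringTie for assembly. The deposited FPKM values of 30477 genes were used as given, and 0.0001 FPKM was read as 0. Since FPKM is relative to the whole library, abundant genes that rise lower the values of others. Read counts were not used here. Depth is unknown, and relative depths came from ratios of low values of genes with 1 transcript. Precision is set by the 3 pigs per group.

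A filter at a mean of 0.1 FPKM left 15384 genes, whose log2(FPKM + 0.1) values went into a linear model of diet in limma 3.58.1 (R 4.3.3). Moderation used eBayes with trend, and p-values were adjusted by Benjamini-Hochberg across the tested genes, with calls at 0.05. For the RNA-Seq data the methods name R and thresholds but no test. The script was tested on simulated data. The 10 genes and all lists were chosen with earlier results of these data known. Genes of the 7 lists were named when among the 3 largest differences called in a list at a mean FPKM of at least 1, or when most abundant among those not called. MMP9, NOG and HAPLN1, with NC means of 0.18, 0.909 and 0.602 FPKM, reached that mean only through the HFCF pigs. Also named were the 5 nearest profiles of SPP1, AMBN and MGP and the 3 neighbours on each side of SPP1 and AMBN; neighbours with no symbol match in the table were left out. List symbols were matched by name, or by gene ID through a name table. A symbol on several rows was read from the most abundant row. The marker lists were for macrophages, lipid-laden macrophages, osteoclasts, osteoblasts and osteocytes, contractile smooth muscle, fibroblasts, endothelium, T cells and adipocytes. The level of 1 marker is not reported here.

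The 15 alternatives were pseudocounts of 1 and 0.01, a filter at 1 FPKM or none, 3 other scalings (median-ratio, quantile, TPM), eBayes with no trend, a replicate block, and each pig left out in turn. GO terms were added after the table's annotation had been seen. Nothing ties NC and HFCF pigs of the same number, so the diets were compared as unpaired groups. The p-values weigh the difference between the diets against the spread between pigs within a diet, moderated over genes. They do not account for differences between the libraries that run with the diet.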

Additional observations from a re-analysis of the deposited data

How the results depend on the processing

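The 4 calcification genes called higher stayed at 4, or at 3 where the filter of a mean FPKM of at least 1 removed RUNX2 or the call of ENPP1 was lost, and 0 were called lower under all 15 alternatives. Because the same contrast had served to choose these genes, the counts describe the processing and lend the genes no support. Over all genes, 2035 were called higher and 1982 lower with median-ratio scaling, 1748 and 1782 with quantile normalization, 2228 and 1539 with TPM, and 2232 and 540 with a replicate block. With 1 pig left out, 1979 to 2815 were called higher and 442 to 786 lower. Among the 7 lists, 6 genes were called higher with each of these 3 scalings, and 7 to 11 with 1 pig left out, the fewest without the first NC pig. The number called lower was 10, 10 and 9 with the same scalings, 2 without a filter, 3 without a variance trend, 2 with a replicate block and 0 to 5 with 1 pig left out, 0 of them without the first or the second NC pig. The cause of these changes was not tested. Of the 13 called list genes named by the rule, 3 (TNFRSF11B, NT5E and MMP9) kept the call in all 15 alternatives. Of the 3 others that were called and named, ITGA4 kept it in the 14 alternatives that tested it, while SOX6 and GGCX did not keep theirs. ITGA4 passed the filter only through the HFCF pigs and was named after its values had been seen, so its kept call is a description. MMP9, with an NC mean of 0.18 FPKM, reached the mean of 1 FPKM for naming only through the HFCF pigs. The same holds for the alternative filter at 1 FPKM, so its kept call is a description as well.

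Signs turned only in values near 0 or with a large spread. The median of all genes was -0.01 with median-ratio scaling and -0.07 with quantile normalization. COMP, at 0.14, was -0.36 with a pseudocount of 0.01, -0.16, -0.20 and -0.08 with the 3 scalings, and between -1.92 and 3.11 with 1 pig left out. COL1A1 lay between -0.53 and 0.02, GAS6 between -0.37 and 0.09, SP7 between -0.17 and 1.69, BMP2 between -0.16 and 0.51 and PKD2 between -0.34 and 0.01 with 1 pig left out. BMP2 was -0.13, -0.35 and -0.04 with median-ratio scaling, quantile normalization and TPM, CD44 was -0.00 with median-ratio scaling and UTP3 was -0.07 with quantile normalization. MGP lay between -0.58 and 0.01, SPARC between -0.49 and 0.12 and ANKH between -0.57 and 0.15 over all alternatives. The replicate numbers do not pair the pigs. Deviations of same-numbered pigs from their group means correlated across genes at 0.021, -0.079 and -0.072, and the block left 4 calcification genes called higher. With the block the calls of DMP1, SMAD5, BMPR1A, SLC20A2, ITGA5 and SOX6 were lost. For low genes such as AMBN, RUNX2 and ALPL, the unknown depth limits how well the NC level is known.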
